A study of Mus musculus with 4 samples.

Results

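The clock output transcription factors are 7 genes, Dbp, Tef, Hlf, Nfil3, Ciart, Bhlhe40 and Bhlhe41, taken by gene symbol from a table of 22155 symbols measured in mouse liver. All 7 were present and all 7 passed the filter on low counts, among 13309 genes tested. The table holds messenger RNA counts from whole liver of wild-type C57BL/6 mice, an inbred laboratory strain, aged 8 to 10 weeks, on a Lieber-DeCarli liquid diet with 5% ethanol for 10 days. The gavage group (2 libraries) also received 1 ethanol binge into the stomach (5 g per kg) and was sampled 9 h later, and the ethanol-alone group (2 libraries) is labelled as receiving the diet without it. No group without ethanol and no control gavage is among the samples used here. The comparison asks how liver expression in ethanol-fed mice differs with the binge. The time of day of sampling is not given in the sources used here, and for these genes an effect of the gavage and a difference in time of day between the groups cannot be told apart. Nothing in the labels ties the 2 libraries of a group to separate animals, and p-values then reflect only the spread among these libraries, which may be technical.

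The liver clock is a feedback loop in which CLOCK and BMAL1 (gene Arntl) switch on genes through E-box elements, and the products of those genes feed back on the loop. DBP, TEF and HLF are PAR bZIP factors, transcription activators that bind D-box elements and carry the rhythm to enzymes of xenobiotic, bile acid and lipid metabolism, while NFIL3 (E4BP4) binds the same elements as a repressor. CIART (CHRONO) represses CLOCK and BMAL1 directly, and BHLHE40 and BHLHE41 (DEC1 and DEC2) are E-box repressors that also respond to feeding, hypoxia and hormones.

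After the gavage, the 3 D-box activators had higher mean levels and the D-box repressor Nfil3 a lower one. The groups overlapped for Hlf. Between the replicate 2 libraries alone, the log2 difference, gavage minus ethanol alone, was 0.02 for Dbp and -0.10 for Hlf. Tef averaged 164 ± 12.2 CPM with gavage and 103 ± 11.7 CPM with ethanol alone, and Nfil3 averaged 18.7 ± 0.154 CPM with gavage and 37.0 ± 7.70 CPM with ethanol alone (SD, n = 2 each, CPM being the count relative to the library total after scaling for library composition). Bhlhe40, Ciart and Bhlhe41 had higher means with gavage, but the groups overlapped for Bhlhe41, for which no direction can be given. Bhlhe40 averaged 199 ± 0.435 CPM with gavage and 132 ± 12.5 CPM with ethanol alone (SD, n = 2 each). None of the 7 passed the quasi-likelihood test of edgeR at 0.05, with p-values adjusted over all genes by the Benjamini-Hochberg method. That test called 0 of 13309 genes (0%), with a smallest adjusted p of 0.0638. At an unadjusted p under 0.05 it took in 3 of the 7, Tef, Nfil3 and Bhlhe40, beside 18.8% of all tested genes. DESeq2 called the same 3, beside 8.84% of tested genes, edgeR's likelihood-ratio test called Nfil3 alone, beside 4.13%, and limma-voom called 0, with 18.4% of tested genes at an unadjusted p under 0.05. The DESeq2 share is over all 13309 tested genes, including 1291 to which DESeq2 gave no adjusted p. For 5 of the 7 genes, 4 higher and 1 lower with gavage, there was no overlap between the groups, where 54.7% of all tested genes did not overlap (27.5% higher and 27.2% lower), so that share is near the background and is not read as a result. The median log2 fold change, gavage over ethanol alone, was 0.59 over the 7 genes and 0.02 over all tested genes. In whole liver, fewer cells of a type and less RNA per cell cannot be told apart.

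**Figure D1:**
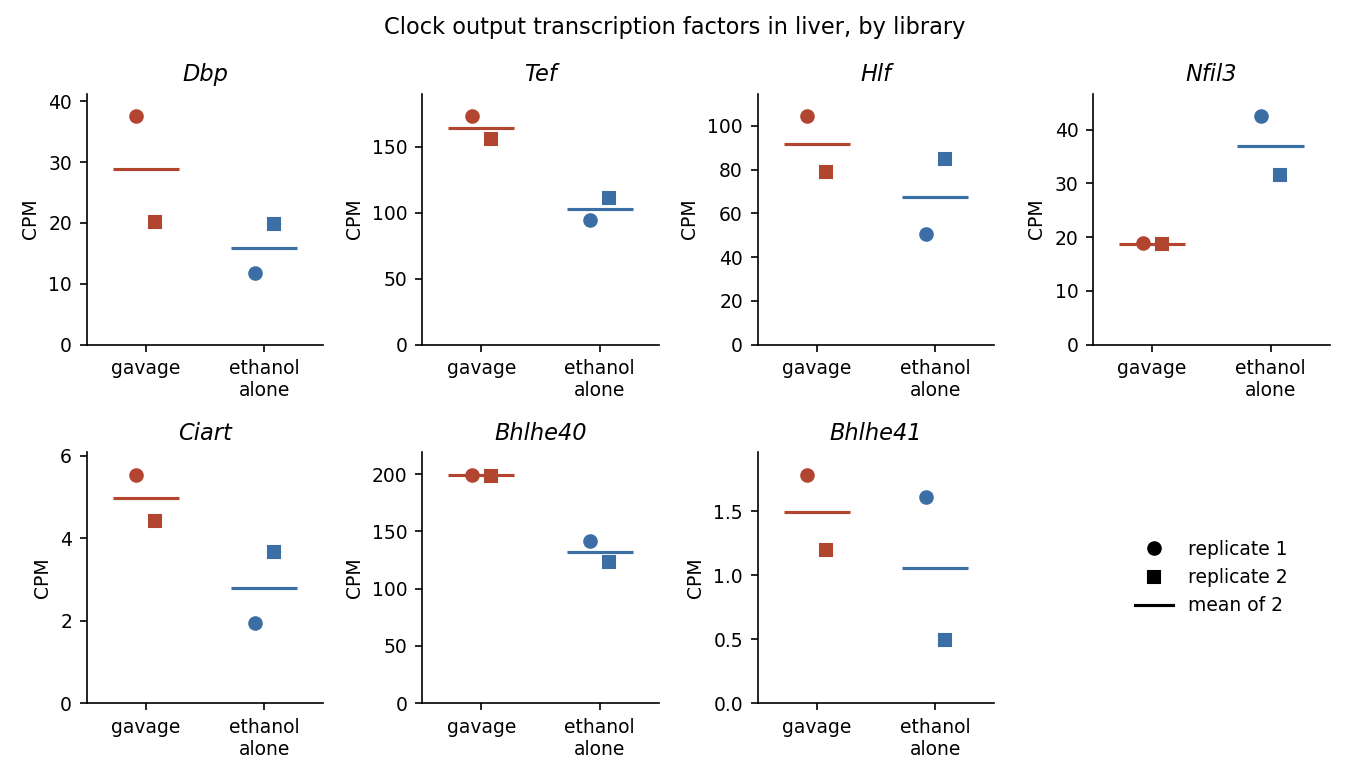
Level of each clock output factor in CPM (vertical axes, each from 0) in the gavage and ethanol-alone libraries, with circles for replicate 1, squares for replicate 2 and a line at the mean of the 2. Nfil3 lies lower in both gavage libraries, Tef and Bhlhe40 lie higher in both, and the groups overlap for Hlf and Bhlhe41.

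Total counts were 28791281 to 30347558 per library. Both libraries numbered 1 stood apart in markers of skeletal muscle. The summed level of 6 muscle markers was 729 CPM in replicate 1 and 1.1 CPM in replicate 2 of the gavage group, and 321 CPM and 9.81 CPM in the same order for ethanol alone. The 7 adipocyte markers summed to 624 and 570 CPM with gavage against 2013 and 1932 CPM with ethanol alone, most of it Car3, which hepatocytes also express and which had 549 and 558 CPM with gavage against 1975 and 1924 CPM with ethanol alone. The other 6 summed to 75.9 and 12.2 CPM with gavage against 38.4 and 7.99 CPM with ethanol alone, again higher in the libraries numbered 1. The 8 hepatocyte markers, Alb the highest of them in each library, summed to 97481 and 120618 CPM with gavage against 140227 and 123717 CPM with ethanol alone, 8 Kupffer cell markers, 7 of them with a negative log2 fold change, to 297 and 356 CPM against 506 and 508 CPM, and 8 neutrophil markers, 3 of them above the filter, to 13.2 and 3.49 CPM against 2.42 and 1.88 CPM. Ethanol-alone replicate 1 stood apart in Slco1a1, a hepatocyte organic anion transporter. Slco1a1 had 8.73 and 1.86 CPM in gavage against 629 CPM in that library and 10.1 CPM in the other one of its group. Cyp2b13 was nearly absent from that library, at 0.0366 CPM, against 229.5 CPM in ethanol-alone replicate 2 and 81.3 and 274.7 CPM with gavage. Cyp2b13 was named after its values were seen. In the same library Elovl3 was high and Cyp2a4 low, as given below, and the cause was not tested. The part of these differences in the results below was not tested; values within the libraries numbered 1 and within those numbered 2 are given beside each of the 7 output factors and for the core clock genes.

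Promoter sequences from RefSeq (GRCm38.p6), 250 bases before to 50 after each annotated start, were matched by symbol for 6 of the 7 genes, all but Bhlhe40. Each window was searched on both strands for the E-box CACGTG, the related CACGTT, the D-box TTATGTAA or TTACGTAA, the cyclic AMP response element TGACGTCA and the RORE bound by REV-ERB receptors, and no matches overlapped in the windows of the 7 genes or of the core clock genes. The E-box was present in 7.15% of all 32851 promoter windows, and 0.0883% held 3 or more. The Ciart window held 3, at -116 to -111, -58 to -53 and -44 to -39, counted back from the base before the start. Tef has a pair of annotated starts, and each window held 1 E-box, at -127 to -122 and -138 to -133. The Bhlhe41 window held 1, at -153 to -148. The Hlf window held 1 cyclic AMP response element at -9 to -2, an element found in 1.79% of windows. The Dbp and Nfil3 windows held none of these motifs, and sequence outside the windows, such as introns or further upstream, was not searched. A D-box occurred in 1.06% of windows and in none of those of the 7 genes. The window of the clock gene Per3 held 2, at -205 to -198 and -158 to -151, and 0.0244% of windows held 2 or more. Among core clock genes, the window of the first Per1 start and that of Cry1 held 1 E-box each, at -166 to -161 and -60 to -55, and no D-box was found in the windows of Per1, Nr1d1, Nr1d2, Rora or Rorb. CACGTT, found in 4.68% of windows, was matched in those of Cry1, Cry2, Nr1d1 and the second Rorb start. No window was matched by symbol for Per2 or Csnk1d, so their promoters were not searched. The RORE, found in 0.384%, was matched in that of the second Arntl start, 27 to 37 bases after it. The windows shown are those of the output factors with an E-box, on which CLOCK and BMAL1 and the BHLHE40 and BHLHE41 repressors act, and that of Per3, which carries the element of the PAR bZIP factors and NFIL3. Capitals mark E-boxes, and D-boxes in Per3. The windows lie at chr3:95882179-95882478 on the minus strand for Ciart, chr15:81802423-81802722 and chr15:81811164-81811463 on the plus strand for the starts of Tef, chr6:145865371-145865670 on the minus strand for Bhlhe41 and chr4:151044616-151044915 on the minus strand for Per3.
Ciart: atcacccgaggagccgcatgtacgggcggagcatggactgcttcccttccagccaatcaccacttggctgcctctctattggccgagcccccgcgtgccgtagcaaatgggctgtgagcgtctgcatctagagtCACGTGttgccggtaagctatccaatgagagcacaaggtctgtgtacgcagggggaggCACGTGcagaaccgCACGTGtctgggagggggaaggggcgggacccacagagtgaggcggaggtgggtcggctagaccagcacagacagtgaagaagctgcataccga
Tef start 1: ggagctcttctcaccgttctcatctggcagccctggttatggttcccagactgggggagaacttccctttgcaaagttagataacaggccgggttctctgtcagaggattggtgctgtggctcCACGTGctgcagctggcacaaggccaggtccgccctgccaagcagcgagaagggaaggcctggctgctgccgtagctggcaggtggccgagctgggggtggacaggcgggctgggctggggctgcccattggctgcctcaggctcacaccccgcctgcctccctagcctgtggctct
Tef start 2: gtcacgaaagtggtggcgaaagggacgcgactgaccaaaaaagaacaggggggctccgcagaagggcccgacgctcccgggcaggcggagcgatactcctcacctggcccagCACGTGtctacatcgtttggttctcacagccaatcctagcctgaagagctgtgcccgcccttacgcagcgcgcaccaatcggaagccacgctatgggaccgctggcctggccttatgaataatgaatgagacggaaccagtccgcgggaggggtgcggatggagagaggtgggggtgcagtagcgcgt
Bhlhe41: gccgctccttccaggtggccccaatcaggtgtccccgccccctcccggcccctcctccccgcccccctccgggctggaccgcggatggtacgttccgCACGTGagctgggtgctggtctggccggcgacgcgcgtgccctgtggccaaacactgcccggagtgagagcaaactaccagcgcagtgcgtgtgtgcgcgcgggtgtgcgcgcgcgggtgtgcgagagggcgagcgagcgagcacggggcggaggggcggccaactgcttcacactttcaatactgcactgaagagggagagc
Per3: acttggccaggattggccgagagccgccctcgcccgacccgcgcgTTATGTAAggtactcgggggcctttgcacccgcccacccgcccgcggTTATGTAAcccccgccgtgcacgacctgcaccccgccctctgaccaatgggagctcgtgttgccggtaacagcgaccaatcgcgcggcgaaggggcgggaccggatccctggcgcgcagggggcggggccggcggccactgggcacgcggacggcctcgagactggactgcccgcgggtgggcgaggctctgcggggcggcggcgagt
A match says only that these letters are present and is not evidence of binding.

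**Figure D2:**
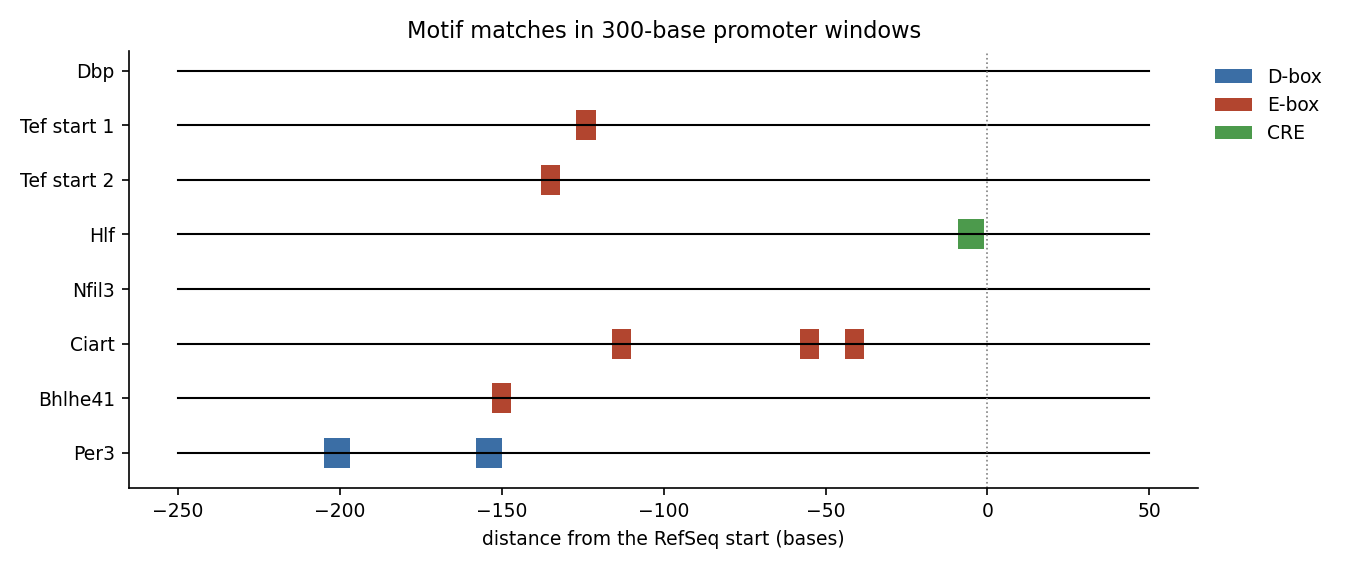
Positions of motif matches (coloured blocks) in RefSeq promoter windows of 300 bases, with distance from the start in bases on the horizontal axis and the dotted line at the start. Ciart holds 3 E-boxes, each Tef start and Bhlhe41 hold 1, Hlf holds 1 cyclic AMP response element (CRE) and Per3 holds 2 D-boxes.

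Among the D-box activators, Tef (thyrotroph embryonic factor; chromosome 15, 81802421 to 81826863, plus strand, GRCm38) had 173 and 156 CPM in the libraries with gavage, against 94.4 and 111 CPM in the ethanol-alone libraries. Both gavage libraries lay above both ethanol-alone libraries. Its log2 fold change was 0.68 (SE 0.21, edgeR quasi-likelihood adjusted p = 0.206), and DESeq2 gave an adjusted p of 0.0204. The log2 difference, gavage minus ethanol alone, was 0.87 within the libraries numbered 1 and 0.49 within those numbered 2, where muscle markers were nearly absent. Dbp (D site albumin promoter binding protein; chromosome 7, 45705088 to 45710203, plus strand) had 37.5 and 20.2 CPM with gavage against 11.8 and 19.9 CPM with ethanol alone. Gavage replicate 1 was the highest library and ethanol-alone replicate 1 the lowest, and the libraries numbered 2 lay almost at the same level. The log2 fold change of Dbp was 0.86 (SE 0.39, edgeR adjusted p = 0.306). The log2 difference was 1.67 within the libraries numbered 1 and 0.02 within those numbered 2, so the difference in means rests on the libraries numbered 1. Hlf (hepatic leukemia factor; chromosome 11, 90336536 to 90390895, minus strand) had 104 and 78.8 CPM with gavage against 50.5 and 84.6 CPM with ethanol alone. Its groups overlapped. Its log2 fold change was 0.44 (SE 0.31, edgeR adjusted p = 0.484), with a log2 difference of 1.05 within the libraries numbered 1 and -0.10 within those numbered 2. Ethanol-alone replicate 1, which stood apart in Slco1a1 and Cyp2b13, was the lowest library for all 3 activators. It was also the lowest for Ciart and the period genes Per2 and Per3, while Bhlhe40 and Bhlhe41 were lowest in ethanol-alone replicate 2.

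The 3' end of Dbp shares 539 exonic bases with Sphk2, a sphingosine kinase gene on the opposite strand, and the strand setting of the counting is not given in the sources used here. Sphk2 had 35.3 and 34.7 CPM with gavage against 61.6 and 50.8 CPM with ethanol alone. Reads from the shared stretch could have been lost or assigned to either gene, which makes the level of Dbp uncertain. Tef, Bhlhe40 and Bhlhe41 share 193, 118 and 1280 exonic bases with annotated transcripts on the opposite strand, which were not analysed here. Ciart lies within the span of an opposite-strand transcript but shares no exonic base with it, and Nfil3 and Hlf overlap no other annotated gene.

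Nfil3 (chromosome 13, 52967209 to 52981073, minus strand), the repressor on the same elements, had 18.9 and 18.6 CPM in the libraries with gavage, against 42.5 and 31.6 CPM in the ethanol-alone libraries. The gavage libraries lay within 1 CPM of each other and below both ethanol-alone libraries. The log2 fold change was -0.98 (SE 0.20, edgeR quasi-likelihood adjusted p = 0.142), the smallest adjusted p of the 7 genes. DESeq2 gave an adjusted p of 0.00509 and the likelihood-ratio test 0.0235. The log2 difference was -1.17 within the libraries numbered 1 and -0.76 within those numbered 2.

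Since these 4 factors bind 1 kind of element, their counts were also set against each other within each library, a ratio that no scaling between libraries can move. Summed counts of Dbp, Tef and Hlf were 16.7 and 13.7 times those of Nfil3 in the gavage libraries, against 3.69 and 6.82 times in the ethanol-alone libraries. The groups did not overlap. The log2 ratio of Dbp to Nfil3 counts was 0.99 and 0.11 with gavage against -1.85 and -0.67 with ethanol alone. That of Tef to Nfil3 was 3.20 and 3.06 with gavage against 1.15 and 1.81 with ethanol alone, and that of Hlf to Nfil3 was 2.47 and 2.08 with gavage against 0.25 and 1.42 with ethanol alone. These ratios share Nfil3, which was itself lower in both gavage libraries, and 82.5% of the other tested genes also had a ratio to Nfil3 that was higher in both, so the separation is not read as a result about the activators. Ratios between activators overlapped between the groups. The log2 ratio of Tef to Dbp was 2.21 and 2.95 with gavage against 3.0 and 2.48 with ethanol alone, and that of Tef to Hlf was 0.73 and 0.98 with gavage against 0.90 and 0.39 with ethanol alone. No test was made on these ratios, whose absolute size also depends on gene length.

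**Figure D3:**
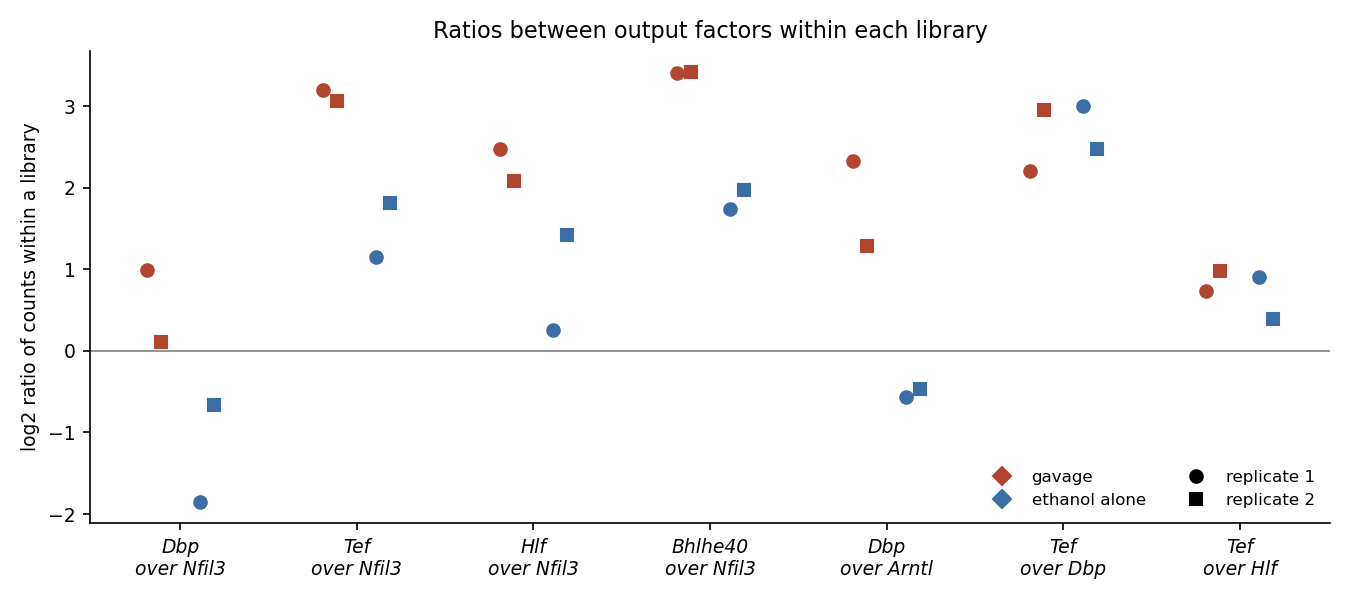
Log2 ratio of the counts of a pair of genes within each library (vertical axis), with gavage left of ethanol alone in each pair, circles for replicate 1 and squares for replicate 2. Ratios to Nfil3 and of Dbp to Arntl lie higher in both gavage libraries than in both ethanol-alone libraries, while Tef to Dbp and Tef to Hlf overlap. Of the other tested genes, 82.5% had a ratio to Nfil3 and 88.7% a ratio to Arntl that was higher in both gavage libraries.

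The E-box repressor Bhlhe40 (chromosome 6, 108660629 to 108666925, plus strand) had 199 and 199 CPM in the libraries with gavage, against 141 and 124 CPM in the ethanol-alone libraries. Both gavage libraries lay above both ethanol-alone libraries. The log2 fold change was 0.59 (SE 0.20, edgeR quasi-likelihood adjusted p = 0.231), and DESeq2 gave an adjusted p of 0.036. The log2 difference was 0.50 within the libraries numbered 1 and 0.69 within those numbered 2. Ciart (chromosome 3, 95878503 to 95882251, minus strand) had 5.54 and 4.42 CPM with gavage against 1.94 and 3.67 CPM with ethanol alone. The groups did not overlap, but gavage replicate 2 and ethanol-alone replicate 2 lay close together, and counts were low, at 174 and 133 with gavage against 53 and 111 with ethanol alone. Its log2 fold change was 0.83 (SE 0.38, edgeR adjusted p = 0.315), with a log2 difference of 1.51 within the libraries numbered 1 and 0.27 within those numbered 2. Bhlhe41 (chromosome 6, 145858243 to 145865558, minus strand), the close relative of Bhlhe40, had the lowest counts. It had 56 and 36 counts with gavage against 44 and 15 with ethanol alone, or 1.78 and 1.20 CPM against 1.61 and 0.496 CPM. The groups overlapped, and the libraries numbered 1, with the muscle and adipocyte markers, were the higher library of each group. Its log2 fold change was 0.50 (SE 0.65, edgeR adjusted p = 0.711). The log2 difference was 0.15 within the libraries numbered 1 and 1.27 within those numbered 2, and without ethanol-alone replicate 2 the fold change was -0.16, so no direction can be given for Bhlhe41.

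**Figure D4:**
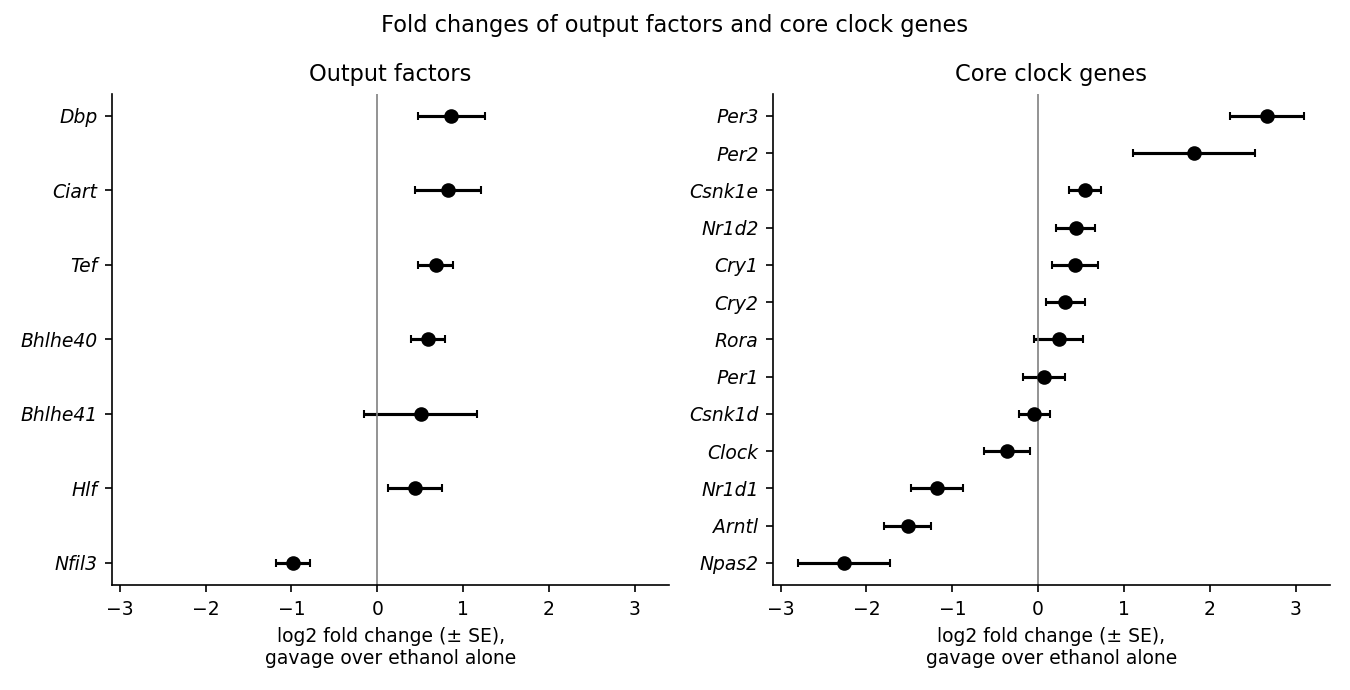
Log2 fold change, gavage over ethanol alone, with its SE (horizontal bars) for the 7 clock output factors and 13 tested core clock genes. Nfil3, Nr1d1, Arntl and Npas2 lie furthest below 0, at -0.98 to -2.26, and Per2 and Per3 lie furthest above, at 1.82 and 2.67.

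Levels can be compared between genes only per length. Divided by the exonic length in GENCODE, mean levels in the gavage group ran from Bhlhe40 at 42.3 ± 0.0924 CPM per kb through Tef at 20.9 ± 1.55, Hlf at 13.7 ± 2.70, Dbp at 9.63 ± 4.10, Nfil3 at 9.25 ± 0.0761 and Ciart at 2.2 ± 0.351 to Bhlhe41 at 0.222 ± 0.0618 CPM per kb (SD, n = 2). In the ethanol-alone group the order was Bhlhe40 at 28.1 ± 2.66 CPM per kb, Nfil3 at 18.3 ± 3.8, Tef at 13 ± 1.49, Hlf at 10.1 ± 3.61, Dbp at 5.29 ± 1.91, Ciart at 1.24 ± 0.540 and Bhlhe41 at 0.157 ± 0.117 CPM per kb (SD, n = 2). Nfil3 stood below Tef and Hlf in both gavage libraries and above them in both ethanol-alone libraries. In ethanol-alone replicate 2 the gap was small, at 15.6 CPM per kb for Nfil3 and 14.1 for Tef. The exonic length merges all annotated transcripts, 10 for Tef (7867 bases) and 1 for Nfil3 (2026 bases), so the order depends on it. Within the gavage group Dbp and Nfil3 changed places between the libraries. Bhlhe40 was the highest and Bhlhe41 the lowest in all 4 libraries, and Tef stood above Hlf and Hlf above Dbp in each.

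Of the 14 core clock genes listed, 13 were tested, 8 with a positive and 5 with a negative log2 fold change, and a median of 0.24. The quasi-likelihood test called 0 of them. At an unadjusted p under 0.05 it took in 2 higher, Per3 and Csnk1e, and 3 lower, Arntl, Npas2 and Nr1d1. Of all tested genes, 8.91% were higher and 9.85% lower at that unadjusted p. DESeq2 and the likelihood-ratio test each called Per3 higher, and Arntl, Npas2 and Nr1d1 lower. Over all tested genes DESeq2 called 8.84% and the likelihood-ratio test 4.13%. Per3, a period gene, had 58.0 and 58.4 CPM with gavage against 5.34 and 12.9 CPM with ethanol alone (log2 fold change 2.67, SE 0.43, edgeR quasi-likelihood adjusted p = 0.133). Per2, its relative, had 66.0 and 84.0 CPM with gavage against 7.25 and 35.3 CPM with ethanol alone (1.82, SE 0.72, edgeR quasi-likelihood adjusted p = 0.266). The groups did not overlap for either period gene, where 27.5% of all tested genes were higher with gavage without overlap. The log2 difference, gavage minus ethanol alone, was 3.44 for Per3 and 3.19 for Per2 within the libraries numbered 1, and 2.18 for Per3 and 1.25 for Per2 within those numbered 2.

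On the other side, Arntl, which encodes BMAL1, had 7.45 and 8.27 CPM with gavage against 17.5 and 27.6 CPM with ethanol alone (log2 fold change -1.52, SE 0.27, edgeR adjusted p = 0.133). Npas2, the paralogue of Clock, had 1.91 and 1.13 CPM with gavage against 4.25 and 10.3 CPM with ethanol alone (-2.26, SE 0.53). Nr1d1, which encodes the RORE repressor REV-ERB alpha, had 49.0 and 30.5 CPM with gavage against 103 and 76.3 CPM with ethanol alone (-1.18, SE 0.30). Arntl, Npas2 and Nr1d1, like Nfil3, were lower in both gavage libraries than in either ethanol-alone library, as were 27.2% of all tested genes. Within the libraries numbered 1 the log2 difference was -1.23 for Arntl, -1.15 for Npas2 and -1.08 for Nr1d1, and within those numbered 2 it was -1.74 for Arntl, -3.19 for Npas2 and -1.33 for Nr1d1. The log2 ratio of Dbp to Arntl counts within a library was 2.33 and 1.29 with gavage against -0.57 and -0.47 with ethanol alone, where 88.7% of the other tested genes also had a ratio to Arntl that was higher in both gavage libraries. Csnk1e, a kinase of period proteins, stood at 14.3 ± 1.11 CPM with gavage and 9.79 ± 0.759 CPM with ethanol alone (SD, n = 2 each). Its log2 fold change was 0.54 (SE 0.19, edgeR quasi-likelihood adjusted p = 0.237). The log2 fold changes of the other tested core genes were 0.44 for Nr1d2, 0.43 for Cry1, 0.32 for Cry2, 0.24 for Rora, 0.07 for Per1, -0.04 for Csnk1d and -0.36 for Clock. Within the libraries numbered 1 the log2 difference was 0.87 for Cry1, 0.53 for Cry2, 0.44 for Nr1d2, 0.39 for Per1, 0.38 for Csnk1e, 0.01 for Csnk1d, 0.00 for Rora and -0.45 for Clock. Within the libraries numbered 2 it was 0.08 for Cry1, 0.14 for Cry2, 0.43 for Nr1d2, -0.32 for Per1, 0.70 for Csnk1e, -0.10 for Csnk1d, 0.41 for Rora and -0.30 for Clock. Per1 and Csnk1d thus differed in sign between the numbers. Of the 7 clock genes with described D-boxes, 6 were tested and 5 had a positive log2 fold change, with a median of 0.34. Per1, at 0.07, was 1 of the 5. Of all 13309 tested genes, 6881 had a positive log2 fold change, with a median of 0.02. Rora was the most abundant of the clock genes with D-boxes in CPM, at 143 ± 45.5 CPM with gavage and 121 ± 15.3 CPM with ethanol alone (SD, n = 2 each).

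All 13 listed enzymes and receptors with described PAR bZIP dependence were tested, 9 with a positive and 4 with a negative log2 fold change (median 0.27). None passed the quasi-likelihood test. An unadjusted p under 0.05 was reached by 1 higher and 2 lower members, beside 8.91% of all tested genes higher and 9.85% lower, so 3 of 13 is near the background of 18.8%. DESeq2 and the likelihood-ratio test each called Cyp7a1 higher and no other member, beside 8.84% and 4.13% of all tested genes in that order. Cyp7a1, which controls the rate of bile acid synthesis and is a described DBP target, had 357 and 242 CPM with gavage against 76.8 and 114 CPM with ethanol alone. Alas1, the first enzyme of heme synthesis, had 180 and 293 CPM with gavage against 368 and 455 CPM with ethanol alone, and Cyp2c54 had 22.4 and 114 CPM with gavage against 328 and 264 CPM with ethanol alone. Alas1 and Cyp2c54 thus lay lower with gavage in both libraries while Cyp7a1 lay higher. Over all tested genes 27.2% lay lower and 27.5% higher without overlap of the groups. Cyp2a4, the most abundant member by mean CPM, had 1382 and 741 CPM with gavage against 69.6 and 511 CPM with ethanol alone. Ethanol-alone replicate 1, the library that stood apart in Slco1a1 and Cyp2b13, lay far below the rest for Cyp2a4. The listed Cyp2a, Cyp2b and Cyp2c genes have near-identical relatives among which the counting could have split or lost reads.

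Of 12 rhythmic liver output genes, all were tested, 6 with a positive and 6 with a negative log2 fold change (median 0.00). The quasi-likelihood test called 0. An unadjusted p under 0.05 was reached by 3 higher and 3 lower members, beside 8.91% of all tested genes higher and 9.85% lower. DESeq2 called Nampt and Gys2 higher and Upp2 and Tsc22d3 lower, beside 8.84% of all tested genes in either direction. The likelihood-ratio test called Upp2 and Tsc22d3, beside 4.13%. Nampt, an enzyme of NAD synthesis driven by CLOCK and BMAL1, had 106 and 95.1 CPM with gavage against 59.5 and 67.2 CPM with ethanol alone. Gys2, the liver glycogen synthase, had 238 and 201 CPM with gavage against 145 and 128 CPM with ethanol alone. Upp2, a uridine phosphorylase, had 29.6 and 16.4 CPM with gavage against 301 and 119 CPM with ethanol alone, and Tsc22d3, a glucocorticoid-induced leucine zipper gene, had 83.0 and 63.5 CPM with gavage against 298 and 249 CPM with ethanol alone. Nampt and Gys2 lay higher and Upp2 and Tsc22d3 lower in both gavage libraries than in either ethanol-alone library. Over all tested genes 27.5% lay higher and 27.2% lower in this way. Lpin1, the most abundant of the list by mean CPM, had 282 and 299 CPM with gavage against 749 and 142 CPM with ethanol alone, with ethanol-alone replicate 1 far above the rest. Elovl3, a fatty acid elongase, was likewise high in that library and was named after its values were seen. It had 1.02 and 1.53 CPM with gavage against 47.9 and 1.29 CPM with ethanol alone. Its groups overlapped, yet it was 1 of the 3 lower members counted above at an unadjusted p under 0.05.

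**Figure D5:**
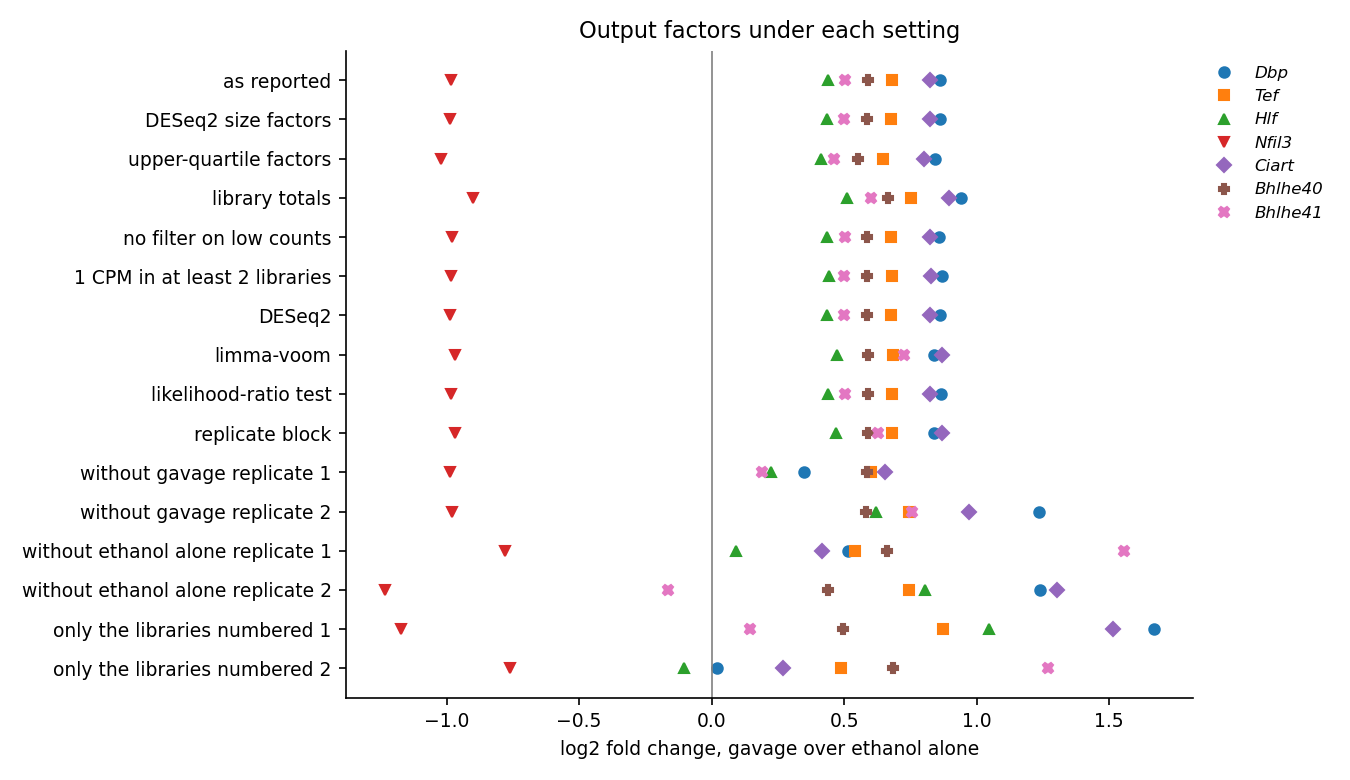
Log2 fold change of each clock output factor (horizontal axis) as reported and under each alternative setting (vertical axis), including each library left out and the pairs of libraries with 1 number. Nfil3 stays below 0 and Tef, Dbp, Ciart and Bhlhe40 above 0 under every setting shown, while Hlf and Bhlhe41 each lie below 0 under 1 of them.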

How the data were processed

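The table deposited by the authors holds raw whole-number counts, 1 row per gene symbol and 1 column for each of the 4 liver libraries, which were grouped by their titles. The tools named in the submitters' processing notes, with no role stated, are STAR 2.6.0a, HTSeq, bcl2fastq 2.20.0.422 and edgeR, and the build is GRCm38. How multi-mapped reads and strand were handled, and with which annotation, was not given in the sources used. Library kits named in the labels' protocols are TruSeq and KAPA.

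The counts were fitted with edgeR 4.0.16 under R 4.3.3: filterByExpr by group (minimum count 10, minimum total 15), TMM factors (0.951 to 1.05), and the 2-sided quasi-likelihood F-test without covariates, with Benjamini-Hochberg adjustment over all 13309 tested genes at 0.05. Each SE was derived from the fit as the size of the log2 fold change over the root of its F statistic. DESeq2 1.42.0 and limma 3.58.1 (voom) served as alternatives, with other scalings, filters, a replicate block and each library left out. Comparison within the libraries of 1 number was added after seeing the data. The procedure was tested on simulated data. The 2 libraries of each group differed beyond sampling noise (chi-square per degree of freedom 135 with gavage and 126 with ethanol alone).

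The 7 genes and the other lists were chosen with earlier results of these data known. Beside the 7 genes, the text names the tested core clock genes of the list used (others are not reported here) and from each other list the member with the highest mean CPM and up to 4 without overlap of the groups at an unadjusted p under 0.05, by smallest p. Gene spans and exonic lengths come from GENCODE M21 and promoter windows from RefSeq.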

Additional observations from a re-analysis of the deposited data

How the results depend on the processing

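The counts of calls depended on the test. Over all genes the quasi-likelihood test called 0, DESeq2 1177, the likelihood-ratio test 549 and the fit with a replicate block 410. Of the 7 output factors these tests called 0, 3, 1 and 0, and of the core clock genes 0, 4, 4 and 3, the last being Arntl, Per3 and Nr1d1. The cause was not tested. With 1 library left out, calls over all genes ranged from 0 to 31 and those of output factors and core clock genes stayed at 0. They numbered 31 without gavage replicate 2 and 12 without ethanol-alone replicate 2. Other scalings and filters and limma-voom called 0 in each of these 3 counts. Same-numbered libraries deviated together from their group means (correlation over genes 0.587), and the libraries numbered 1 share the muscle and adipocyte markers, but the labels do not say what a number marks, and whether it pairs the libraries is not known.

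The log2 fold changes of 6 of the 7 factors kept their sign under 13 alternatives of scaling, filter, test, block and left-out library. Their values ranged from -1.23 to -0.78 for Nfil3, 0.54 to 0.75 for Tef, 0.44 to 0.67 for Bhlhe40, 0.35 to 1.24 for Dbp, 0.42 to 1.31 for Ciart and 0.09 to 0.81 for Hlf. Dbp had 0.35 without gavage replicate 1 and 0.52 without ethanol-alone replicate 1, and Hlf 0.09 without the last. With each library left out in turn, Bhlhe41 ranged from -0.16 to 1.56, reversed without ethanol-alone replicate 2. With only the libraries numbered 2, Hlf reversed to -0.10. With 2 libraries a group, the spread rests on 2 residual degrees of freedom, and for Bhlhe41 the low counts limit any comparison.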

Other observations

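Relatives of the output factors outside the clock were also measured. Of 6 C/EBP bZIP genes, all tested, 3 had a positive and 3 a negative log2 fold change, of which 1 higher and 1 lower reached an unadjusted p under 0.05 in edgeR's quasi-likelihood test and 0 passed it after adjustment, beside 18.8% of all tested genes at that unadjusted p. DESeq2 called Cebpg higher and Cebpe lower, beside 8.84% of all tested genes, and the likelihood-ratio test Cebpe, beside 4.13%. Cebpg had 144 and 149 CPM with gavage against 88.8 and 84.1 CPM with ethanol alone. Cebpe, known as a myeloid factor, had 0.955 and 2.09 CPM with gavage against 4.98 and 6.01 CPM with ethanol alone. Cebpa, the most abundant by mean CPM and a hepatocyte identity factor, had 356 and 298 CPM with gavage against 393 and 449 CPM with ethanol alone. Of 11 Hairy-related and Id genes, relatives of BHLHE40 in the helix-loop-helix class, 8 were tested, 4 with a positive and 4 with a negative log2 fold change, and an unadjusted p under 0.05 was reached by 0 higher and 2 lower, beside 8.91% of all tested genes higher and 9.85% lower. DESeq2 called Id1 and Id3 lower, beside 8.84% of all tested genes, and the likelihood-ratio test Id3, beside 4.13%. Id1, an inhibitor of helix-loop-helix factors, had 7.77 and 8.87 CPM with gavage against 17.5 and 14.2 CPM with ethanol alone, and Id3 had 21.4 and 26.5 CPM with gavage against 39.0 and 67.2 CPM with ethanol alone. Id2, the most abundant by mean CPM, overlapped between the groups, with 159 and 141 CPM with gavage against 91.9 and 141 CPM with ethanol alone.

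Genes with the pattern most like each output factor over the 4 libraries were found by the root mean square difference in log2 CPM centred on the gene's mean, among 9332 genes with a mean of at least 5 CPM. For Tef they were Epn2, Zc3h8 and Nampt, at 0.0047, 0.021 and 0.023. For Nfil3 they were Itga8, Oaz1 and Slc19a2, at 0.019, 0.029 and 0.040. For Dbp they were Enpep, Parp16 and Rnd2, at 0.049, 0.079 and 0.091, for Hlf Nup205, Ssx2ip and Frat1, at 0.063, 0.069 and 0.071, and for Ciart Pag1, Gga2 and Tmed8, at 0.028, 0.037 and 0.051. For Bhlhe40 they were Kitl, Lrrfip2 and Rrbp1, at 0.015, 0.028 and 0.028, and for Bhlhe41 Adamtsl2, Cars and Wsb1, at 0.078, 0.12 and 0.14. With 4 libraries many genes share a pattern. Within a difference of 0.25 lay 1920 genes for Tef, 1929 for Bhlhe40, 1093 for Hlf, 895 for Nfil3, 679 for Ciart, 61 for Dbp and 52 for Bhlhe41.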
